A study of Homo sapiens with 12 samples.

Results

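Messenger RNA of 10 antioxidant genes was followed in PANC-1 cells, an established line from a human pancreatic ductal adenocarcinoma. The 10 genes were chosen by symbol out of 60669 gene identifiers in the count tables. SOD2 and SOD1 are superoxide dismutases, NQO1 is a quinone reductase, HMOX1 is heme oxygenase 1, GCLC and GCLM are the subunits of glutamate-cysteine ligase, TXN is thioredoxin, TXNRD1 is thioredoxin reductase 1, TXNIP is the thioredoxin-interacting protein and SRXN1 is sulfiredoxin. All 10 passed the filter on low counts, although SRXN1 had only 92 counts in total.

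Cells were reverse transfected for 72 h with a single siRNA, either one called siAS1 s1 in the design text and SIK3 siRNA in the sample characteristics, or the control siRNA siCtr1. SIK3 is a kinase of the salt-inducible family. Recombinant human TNF-α, an inflammatory cytokine, was then given at 100 ng/mL for 30 min or 4 h, or not given. The 12 libraries form 6 groups of 2 replicates, which the submitters call biological. The sources do not say whether they came from separate cultures, so p-values measure only the spread between these samples. With 1 siRNA against SIK3, an effect through SIK3 and one through another target of the same siRNA cannot be told apart.

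File names and sample titles, both from the submitters, give different conditions for 8 of the 12 libraries, that is 4 of the 6 groups. Conditions below follow the file names, in which SIK3 or Scr1 names the siRNA and CLM was read as no TNF. The libraries named SIK3 CLM are titled SIK3 siRNA with TNF 30 min, those named SIK3 30min are titled control siRNA with TNF 4 h, and those named SIK3 4h carry the same condition in both. The libraries named Scr1 CLM also carry the same condition in both, those named Scr1 30min are titled SIK3 siRNA unstimulated, and those named Scr1 4h are titled control siRNA with TNF 30 min. A comparison of 2 named groups therefore has another reading under the titles, given once where each comparison is introduced.

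SIK3 mRNA sorted with the file names. In CPM, read counts relative to a library size scaled by edgeR's TMM factors, it was 16.3 and 22.4 in the libraries named SIK3 CLM (replicate 1 and replicate 2), 17.2 and 24.0 in SIK3 30min and 18.2 and 22.7 in SIK3 4h. It was 34.3 and 60.3 in Scr1 CLM, 42.4 and 68.6 in Scr1 30min and 34.3 and 65.1 in Scr1 4h. Every library named SIK3 lay below every library named Scr1, whereas the libraries titled SIK3 siRNA unstimulated were among the highest. With the replicate number as a block, SIK3 minus Scr1 libraries differed by log2 -1.25 for CLM, -1.42 for 30min and -1.25 for 4h. The edgeR adjusted p with the block were 2.07e-09, 1.66e-10 and 3.54e-09. Without the block the log2 differences were -1.29 ± 0.381 for CLM, -1.43 ± 0.379 for 30min and -1.27 ± 0.382 for 4h (log2 ± SE, n = 2 each). Without the block the edgeR adjusted p were 0.0231, 0.0146 and 0.0244. Each of these calls was lost without some library, among them replicate 2 of Scr1 CLM (-0.85, adjusted p = 0.158), of Scr1 30min (-1.06, 0.105) and of Scr1 4h (-0.74, 0.188). They were lost too without replicate 1 of SIK3 CLM (-1.09, 0.135), replicate 1 of SIK3 30min (-1.23, 0.0949) and replicates 1 and 2 of SIK3 4h (-1.13 and -1.45, 0.13 and 0.0684).

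Gene counts per library ran from 13535825 to 22699756, and a count of 0 allows a level of 0.132 to 0.222 CPM depending on the library (3 counts, counting error only). Reads mapping to several places were 4.94 to 45.3% of all reads and were higher in replicate 2 of all 6 groups. Reads assigned to no annotated gene feature were 16.5 and 17.1% in SIK3 4h and 8.35 to 10.5% in the other 10 libraries. Whether they lay in introns or between genes is not given, and their part in the results was not tested. Of the ductal markers, KRT8, KRT18, KRT19 and SOX9 were present in every library, and KRT7 was low at 5.9 to 11.7 CPM. The 11 markers of leukocytes, endothelium, fibroblasts, acinar and islet cells summed to 0.71 to 2.49 CPM, with PRSS1, CPA1 and INS at 0 in all 12 libraries. In bulk RNA, fewer cells of a type and less RNA per cell cannot be told apart.

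Superoxide dismutases turn superoxide into hydrogen peroxide, SOD2 in the mitochondrial matrix and SOD1 mainly in the cytosol. SOD2 is a well-known target of the transcription factor NF-κB, which TNF activates through its receptor. NQO1, HMOX1, GCLC, GCLM, TXN, TXNRD1 and SRXN1 are known targets of NRF2 (gene NFE2L2), which KEAP1 marks for degradation until oxidants or electrophiles modify KEAP1. NRF2 pairs with small MAF proteins on antioxidant response elements, and BACH1 represses HMOX1 at such elements. TXNIP binds thioredoxin and is controlled chiefly by the sugar-responsive factor MondoA (MLXIP) with MLX at a carbohydrate response element. TXNIP and SOD1 are thus placed in neither group here.

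Sequence upstream of 4 members is shown, to set windows in which a response element was found beside the window of SOD2. RefSeq's table (GRCh38.p14) held 13 promoter windows for 8 of the 10 members; SOD1 and HMOX1 are named only. The bases shown lie within the 250 bases before a RefSeq transcript start, and bases that GENCODE 29 places in an exon are left off, other than 1 base of the GCLM motif. Capitals mark a match to a searched motif, read 5′ to 3′ on the gene's strand. The antioxidant response element core was searched as TGACNNNGC and the carbohydrate response element as 2 boxes CACGNG with 5 unspecified bases between them, both on both strands; the κB consensus was searched too.
SOD2, chr6:159693329-159693491, minus strand: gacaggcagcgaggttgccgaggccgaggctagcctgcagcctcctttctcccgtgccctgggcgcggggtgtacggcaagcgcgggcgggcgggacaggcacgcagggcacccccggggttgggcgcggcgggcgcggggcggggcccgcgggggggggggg
GCLM, chr1:93909456-93909680, minus strand: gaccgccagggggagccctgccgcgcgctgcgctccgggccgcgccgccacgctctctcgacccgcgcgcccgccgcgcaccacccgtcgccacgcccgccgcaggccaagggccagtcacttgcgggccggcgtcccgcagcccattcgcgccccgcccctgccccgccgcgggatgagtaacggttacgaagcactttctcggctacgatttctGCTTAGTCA
TXNRD1, chr12:104215529-104215778, plus strand: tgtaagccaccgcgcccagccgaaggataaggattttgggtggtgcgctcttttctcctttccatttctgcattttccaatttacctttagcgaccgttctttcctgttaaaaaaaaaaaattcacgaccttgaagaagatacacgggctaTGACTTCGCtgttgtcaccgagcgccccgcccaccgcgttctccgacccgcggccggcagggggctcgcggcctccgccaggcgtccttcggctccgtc
TXNIP, chr1:145996601-145996829, minus strand: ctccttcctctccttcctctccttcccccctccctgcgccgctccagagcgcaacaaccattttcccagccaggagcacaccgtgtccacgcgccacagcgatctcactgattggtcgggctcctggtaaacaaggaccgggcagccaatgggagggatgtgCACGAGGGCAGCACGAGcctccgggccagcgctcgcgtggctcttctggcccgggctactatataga
In GCLM the capitals GCTTAGTCA are the antioxidant response element core read on the opposite strand, starting at -34 from the RefSeq start. In TXNRD1 the core TGACTTCGC starts at -99, and in TXNIP the paired carbohydrate response element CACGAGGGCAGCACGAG starts at -88. A further TXNRD1 window also held the core. None of the motifs searched was in any of the 4 SOD2 windows, of which 1 is printed, nor in the windows of NQO1, GCLC, TXN and SRXN1, although these 4 are counted as NRF2-type here. That says only that these letters are not in these windows. Over 35116 windows of the same length, 10.9% held the antioxidant response element core, 9.96% the κB consensus and 0.0456% the carbohydrate response element. A match is a description and not a shown binding site.

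SOD2 (ENSG00000112096, GRCh38 chromosome 6, 159669057 to 159745186, minus strand) was the member with the strongest 4h difference. It had 685 and 570 CPM in SIK3 CLM, 507 and 476 CPM in SIK3 30min, and 1659 and 1727 CPM in SIK3 4h. In the control siRNA it had 363 and 306 CPM in Scr1 CLM, 325 and 294 CPM in Scr1 30min, and 2163 and 1717 CPM in Scr1 4h. The 4h libraries of both siRNAs stood apart from all others, and they overlapped each other, while both earlier times were higher in SIK3 than in Scr1 libraries.

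In 4h against CLM libraries, SOD2 rose 2.70-fold in SIK3 libraries (log2 1.43 ± 0.139, edgeR adjusted p = 0.000602; titles: SIK3 siRNA, TNF 4 h against TNF 30 min). In Scr1 libraries it rose 5.80-fold (log2 2.54 ± 0.144, adjusted p = 7.61e-06; titles: control siRNA, TNF 30 min against unstimulated). The smaller difference in SIK3 libraries was tested as an interaction, which was -1.11 ± 0.194 on the log2 scale (edgeR adjusted p = 0.0272). This call was lost without any 1 of 5 of the 8 libraries, namely replicate 1 or 2 of SIK3 4h (adjusted p = 0.115 and 0.112), replicate 1 of SIK3 CLM (0.0936), replicate 1 of Scr1 4h (0.096) or replicate 2 of Scr1 CLM (0.0884). The log2 values without these lay between -1.14 and -0.93. With the replicate number as a block and all libraries kept, the interaction was -1.09 (edgeR adjusted p = 4.1e-08).

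The gap between the siRNAs lay in the earlier times. SOD2 was 1.88-fold higher in SIK3 CLM than in Scr1 CLM (log2 0.91 ± 0.138, edgeR adjusted p = 0.000646; titles: TNF 30 min with SIK3 siRNA against unstimulated with control siRNA). It was 1.59-fold higher in SIK3 30min than in Scr1 30min (log2 0.67 ± 0.137, adjusted p = 0.00392; titles: control siRNA with TNF 4 h against SIK3 siRNA unstimulated). At 4h the difference was -0.20 on the log2 scale (95% interval -0.50 to 0.11, adjusted p = 0.286; titles: SIK3 siRNA with TNF 4 h against control siRNA with TNF 30 min). With the replicate number as a block, that value was -0.19 with an adjusted p of 0.0159, and SOD2 at 30min against CLM in SIK3 libraries was -0.35 with an adjusted p of 0.00227, against an adjusted p of 1 without the block. By title, the 30min against CLM comparison within SIK3 libraries sets TNF 4 h under control siRNA beside TNF 30 min under the SIK3 siRNA. Within Scr1 libraries it sets the SIK3 siRNA beside the control siRNA, both unstimulated. SOD2 shares 298 exon bases with WTAP on the opposite strand, and since the strand setting of the counting is not stated, reads there cannot be told apart. A further identifier named SOD2 shares 845 exon bases on the same strand and had 0 counts.

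**Figure D1:**
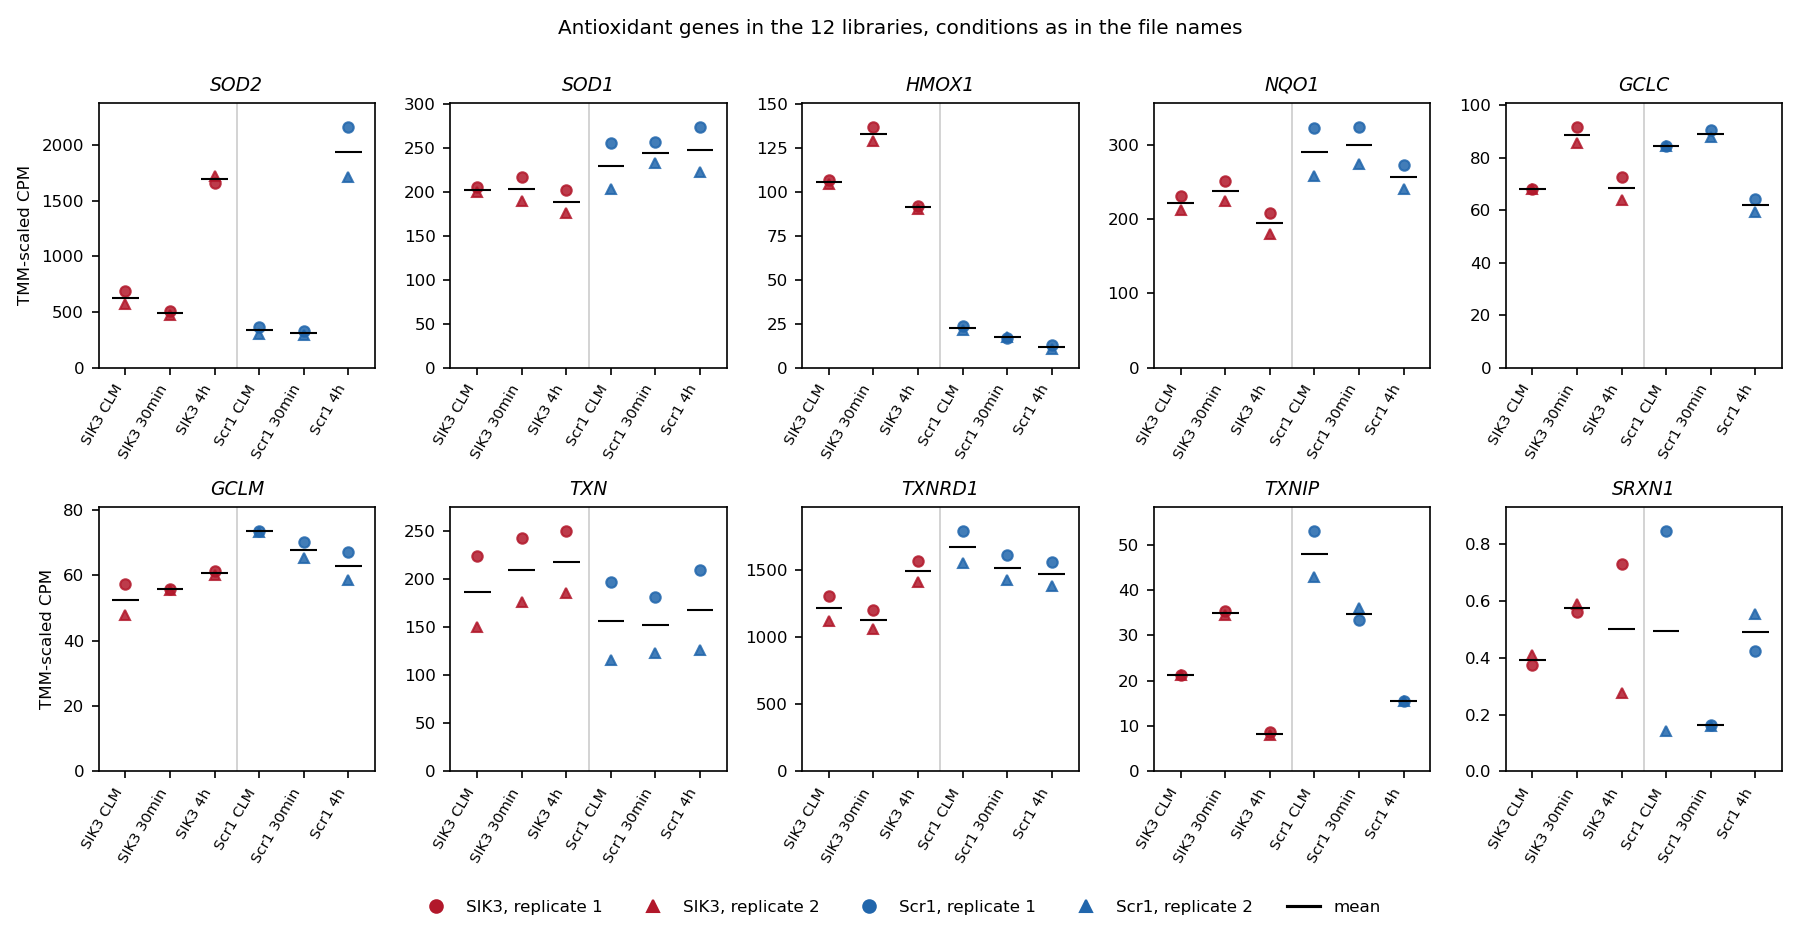
TMM-scaled CPM (linear axis from 0) of the 10 antioxidant genes in the 12 libraries, grouped by the condition words of the file names; points are libraries, circles replicate 1 and triangles replicate 2, and horizontal lines are means of 2. SOD2 stands at 1659 to 2163 CPM in the 4h libraries of both siRNAs, HMOX1 is at 90.1 CPM or more in every SIK3 library and at 23.4 CPM or less in every Scr1 library, and TXNIP is lowest at 4h.

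SOD1 (ENSG00000142168, chromosome 21, 31659622 to 31668931), the cytosolic dismutase, stayed within a narrow range. It had 205 and 199 CPM in SIK3 CLM, 216 and 190 CPM in SIK3 30min and 202 and 176 CPM in SIK3 4h, against 256 and 203 CPM in Scr1 CLM, 257 and 232 CPM in Scr1 30min and 274 and 222 CPM in Scr1 4h. Its 6 groups overlap their neighbours throughout the order of means, which ran from Scr1 4h down to SIK3 4h. At 4h against CLM the log2 difference was -0.10 in SIK3 libraries (95% interval -0.42 to 0.22) and 0.11 in Scr1 libraries (-0.21 to 0.43), and neither was called by edgeR (adjusted p = 0.852 and 0.817). Between the siRNAs at 4h it was -0.39 ± 0.143 (edgeR adjusted p = 0.0539, or 0.0396 with DESeq2 and 1.06e-05 with the replicate block). The block also called it lower for CLM (-0.17, adjusted p = 0.0176) and for 30min (-0.27, 0.000567).

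HMOX1 (ENSG00000100292, chromosome 22, 35380361 to 35394214), which breaks down heme to biliverdin, iron and carbon monoxide, showed the widest gap between the siRNAs of all 10 genes. It had 107 and 105 CPM in SIK3 CLM, 137 and 129 CPM in SIK3 30min and 92.2 and 90.1 CPM in SIK3 4h. It had 23.4 and 21.5 CPM in Scr1 CLM, 16.9 and 17.7 CPM in Scr1 30min and 12.6 and 10.7 CPM in Scr1 4h. No 2 of the 6 groups overlapped. HMOX1 was 4.71-fold higher in SIK3 than in Scr1 libraries for CLM (log2 2.23 ± 0.101, edgeR adjusted p = 7.17e-07), 7.68-fold for 30min (log2 2.94 ± 0.104, adjusted p = 3.88e-07) and 7.80-fold for 4h (log2 2.96 ± 0.106, adjusted p = 6.75e-07).

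At 4h against CLM it fell by 0.94 ± 0.103 on the log2 scale in Scr1 libraries (1.93-fold, edgeR adjusted p = 0.000322), and in SIK3 libraries the difference was -0.22 ± 0.0956 (adjusted p = 0.298). The interaction at 4h was 0.73 ± 0.141 (edgeR adjusted p = 0.0376). It was lost in each of the 8 refits without 1 library, with values of 0.62 to 0.85 and adjusted p of 0.0694 to 0.177, and with DESeq2 size factors (0.69, adjusted p = 0.0526). At 30min against CLM the difference was 0.33 ± 0.0953 in SIK3 libraries and -0.38 ± 0.1 in Scr1 libraries, neither called without the block (adjusted p = 0.679 and 0.457). With the replicate block these passed at adjusted p of 0.00248 and 0.0112, the interaction at 30min was 0.71 (0.00082), and the 4h difference in SIK3 libraries was -0.21 (0.0165). The blocked interaction at 4h was 0.73 (edgeR adjusted p = 9.08e-05).

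NQO1 (ENSG00000181019, chromosome 16, 69706996 to 69726951), a cytosolic two-electron quinone reductase and a standard readout of NRF2, was lower in every SIK3 library than in the Scr1 libraries of the same time. It had 231 and 212 CPM in SIK3 CLM, 251 and 224 CPM in SIK3 30min and 209 and 180 CPM in SIK3 4h, against 323 and 259 CPM in Scr1 CLM, 324 and 275 CPM in Scr1 30min and 272 and 240 CPM in Scr1 4h. The log2 differences between the siRNAs were -0.39 ± 0.14 for CLM, -0.33 ± 0.139 for 30min and -0.40 ± 0.14 for 4h, and edgeR called the last (adjusted p = 0.05001, 0.0892 and 0.0469). The 4h call was lost without any 1 of its 4 libraries (adjusted p of 0.0619 to 0.247) and with library totals in place of TMM (-0.30, 0.139). With the replicate block all 3 were called (adjusted p = 1.86e-06, 1.36e-05 and 1.46e-06). The 4h minus CLM difference was -0.19 ± 0.14 in SIK3 libraries and -0.18 ± 0.139 in Scr1 libraries (adjusted p = 0.605 and 0.592), called lower with the block only (0.0133 and 0.0161).

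GCLC (ENSG00000001084, chromosome 6, 53497341 to 53616970) encodes the catalytic subunit of the enzyme that limits glutathione synthesis, and GCLM (ENSG00000023909, chromosome 1, 93885205 to 93909456) its modifier subunit. GCLC had 68.1 and 68.2 CPM in SIK3 CLM, 91.7 and 85.5 CPM in SIK3 30min and 72.9 and 63.8 CPM in SIK3 4h, against 84.7 and 84.4 CPM in Scr1 CLM, 90.7 and 87.9 CPM in Scr1 30min and 64.4 and 59.5 CPM in Scr1 4h. In both siRNAs GCLC was highest at 30min. GCLM had 57.2 and 47.8 CPM in SIK3 CLM, 55.7 and 55.5 CPM in SIK3 30min and 61.1 and 60.2 CPM in SIK3 4h, against 73.5 and 73.2 CPM in Scr1 CLM, 70.1 and 65.3 CPM in Scr1 30min and 67.2 and 58.6 CPM in Scr1 4h. The 2 subunits did not share 1 time course: in SIK3 libraries GCLM was highest at 4h, when GCLC was near its CLM level.

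Both subunits were lower in SIK3 CLM than in Scr1 CLM, GCLC by a log2 difference of -0.31 ± 0.0932 (edgeR adjusted p = 0.0249) and GCLM by -0.48 ± 0.109 (adjusted p = 0.00635). The GCLC call was lost without any 1 of the 4 libraries (adjusted p of 0.0634 to 0.123) and with library totals (-0.24, 0.083), and the GCLM call without replicate 2 of SIK3 CLM (-0.35, 0.0675). At 4h the SIK3 minus Scr1 values were 0.14 ± 0.0937 for GCLC and -0.05 ± 0.109 for GCLM, neither called (adjusted p = 0.265 and 0.743). GCLC fell in Scr1 4h against Scr1 CLM by 0.45 ± 0.0936 on the log2 scale (edgeR adjusted p = 0.0149). That call was lost without replicate 2 of Scr1 4h (-0.40, 0.128) and without replicate 1 or 2 of Scr1 CLM (0.0702 and 0.0671). In SIK3 libraries the same difference was 0.00 ± 0.0933, and the interaction was 0.45 ± 0.132 (adjusted p = 0.174, or 0.00183 with the replicate block). For GCLM the 4h difference was 0.21 ± 0.109 in SIK3 libraries and -0.22 ± 0.109 in Scr1 libraries. The interaction was 0.43 ± 0.154 (adjusted p = 0.298), and these 3 values passed with the block (0.0457, 0.0296 and 0.00726). The block also called GCLC at 30min in SIK3 libraries (0.38, adjusted p = 0.000793) and GCLM lower in SIK3 30min than in Scr1 30min (-0.28, 0.00172).

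**Figure D2:**
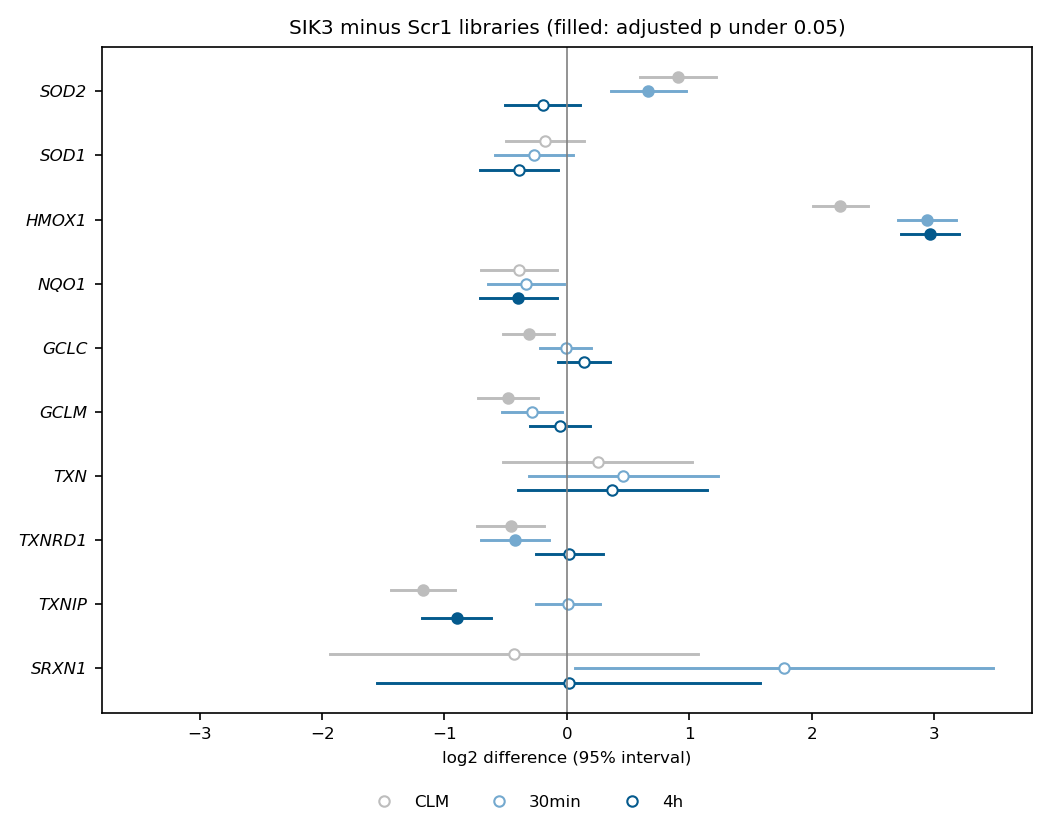
Log2 difference (x axis) of SIK3 minus Scr1 libraries for the 10 genes (rows) at each file-name time, with 95% intervals from the edgeR fit of 12 libraries; filled points have an adjusted p under 0.05. HMOX1 lies at 2.23 to 2.96 at all 3 times, SOD2 is above 0 for CLM and 30min and at -0.20 for 4h, and TXNIP is lower for CLM and 4h but not for 30min.

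TXNRD1 (ENSG00000198431, chromosome 12, 104215779 to 104350305), the selenoprotein that reduces oxidised thioredoxin, had the highest level per length of the members in Scr1 CLM, at 249.5 CPM per kilobase of merged exons. On that scale TXN followed at 137, SOD1 at 114 and NQO1 at 89.4, SOD2 was at 20.3 in Scr1 CLM and 118 in Scr1 4h, and HMOX1 was at 9.34 and 4.84. In CPM, TXNRD1 was at 1311 and 1125 in SIK3 CLM, 1204 and 1060 in SIK3 30min and 1572 and 1414 in SIK3 4h, against 1792 and 1555 in Scr1 CLM, 1613 and 1424 in Scr1 30min and 1560 and 1386 in Scr1 4h. Its libraries were apart by siRNA for CLM and 30min and overlapped at 4h.

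TXNRD1 was lower in SIK3 CLM than in Scr1 CLM by a log2 difference of -0.46 ± 0.122 (edgeR adjusted p = 0.0146) and lower in SIK3 30min than in Scr1 30min by -0.42 ± 0.122 (adjusted p = 0.0215). The first call was lost without replicate 2 of SIK3 CLM (-0.34, 0.13) or replicate 1 of Scr1 CLM (-0.37, 0.0779). The second was lost without replicate 2 of SIK3 30min (-0.36, 0.103), without replicate 1 of Scr1 30min (-0.36, 0.105) and with library totals (-0.33, 0.0778). At 4h the difference was 0.02 ± 0.122 (95% interval -0.25 to 0.29). The 4h minus CLM value was 0.29 ± 0.122 in SIK3 libraries and -0.18 ± 0.122 in Scr1 libraries (adjusted p = 0.262 and 0.511), with an interaction of 0.48 ± 0.173 (0.303). With the replicate block these 3 had adjusted p of 5.2e-06, 0.000759 and 1.92e-06, and 30min against CLM in Scr1 libraries was -0.14 (0.0469).

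TXN (ENSG00000136810, chromosome 9, 110243811 to 110256640), the small disulphide reductase that TXNRD1 keeps reduced, varied more between replicates than between groups. It had 224 and 150 CPM in SIK3 CLM, 243 and 177 CPM in SIK3 30min and 250 and 186 CPM in SIK3 4h, against 198 and 116 CPM in Scr1 CLM, 182 and 123 CPM in Scr1 30min and 210 and 127 CPM in Scr1 4h. Replicate 2 was lower in all 6 groups, by 0.59 on the log2 scale over the groups, in the libraries that also had more multimapping reads; the part of these reads was not tested. The 7 annotated TXN pseudogenes took 0.432% of the counts of TXN and pseudogenes together. SIK3 minus Scr1 values were 0.25 ± 0.344, 0.46 ± 0.344 and 0.37 ± 0.344 for CLM, 30min and 4h, none called by edgeR (adjusted p = 0.605, 0.33 and 0.431) and all called higher with the replicate block (0.00199, 4.06e-06 and 3.72e-05). The 4h minus CLM value in SIK3 libraries was 0.22 ± 0.344, called with the block only (adjusted p = 0.0163).

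TXNIP (ENSG00000265972, chromosome 1, 145992435 to 145996600), the thioredoxin-binding alpha-arrestin whose upstream sequence is printed above, had the deepest fall of the members at 4h. It had 21.2 and 21.2 CPM in SIK3 CLM, 35.4 and 34.5 CPM in SIK3 30min and 8.62 and 8.04 CPM in SIK3 4h. In the control siRNA it had 53.0 and 42.8 CPM in Scr1 CLM, 33.4 and 36.1 CPM in Scr1 30min and 15.6 and 15.5 CPM in Scr1 4h. The 30min libraries of both siRNAs overlapped at about 35 CPM, although the SIK3 ones lay above their CLM libraries and the Scr1 ones below theirs.

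TXNIP fell at 4h against CLM by 1.35 ± 0.124 on the log2 scale in SIK3 libraries (2.55-fold, edgeR adjusted p = 0.000518) and by 1.62 ± 0.12 in Scr1 libraries (3.08-fold, adjusted p = 3.05e-05), with an interaction of 0.28 ± 0.171 (adjusted p = 0.685). TXNIP was lower in SIK3 than in Scr1 libraries for CLM (log2 -1.18 ± 0.117, adjusted p = 4.84e-05) and 4h (-0.90 ± 0.125, 0.000415), and at 30min the difference was 0.01 (95% interval -0.25 to 0.27). At 30min against CLM the difference was 0.72 ± 0.117 in SIK3 libraries (edgeR adjusted p = 0.0742, DESeq2 0.0015, replicate block 2.93e-05) and -0.46 ± 0.115 in Scr1 libraries (0.357, block 0.00256). The interaction at 30min was 1.19 ± 0.164, not called by edgeR without the block (adjusted p = 0.629) and called by DESeq2 (0.00099) and with the block (1.44e-05).

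SRXN1 (ENSG00000271303, chromosome 20, 646615 to 653370), which restores overoxidised peroxiredoxins, had counts close to the limit of detection. It had 2 to 16 counts per library, 0.141 to 0.845 CPM, and 2292 of its 2698 exon bases are shared with AL121758.1 on the same strand, where a read cannot be assigned to 1 gene. Little mRNA and reads left unassigned in the shared bases therefore cannot be told apart. Its differences have wide errors. One was 1.78 ± 0.761 for SIK3 30min minus Scr1 30min (edgeR adjusted p = 0.0953; 0.0322 with the replicate block, 0.0345 in the libraries compared alone).

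Counted over the 10 genes, edgeR called 2 members at 4h against CLM in SIK3 libraries, SOD2 higher and TXNIP lower. Of the 16695 genes tested 4.42% were called there, 3.65% higher and 0.767% lower. In Scr1 libraries it called 4, SOD2 higher and HMOX1, GCLC and TXNIP lower, where 8.99% of all genes were called, 5.53% higher and 3.46% lower. Those calls over all genes in Scr1 libraries were 923 higher and 578 lower, or 820 higher and 825 lower with library totals in place of TMM, which shifted the median of all genes to -0.11. For 30min against CLM edgeR called 0 of 10 members in SIK3 libraries (4 at an unadjusted p under 0.05, 1 with DESeq2), where 0.15% of all genes were called and 0.012% were lower. It called 0 of 10 in Scr1 libraries (2 unadjusted, 0 with DESeq2), where 0.294% of all genes were called and 0.024% were lower.

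SIK3 against Scr1 libraries called 6 members for CLM, 2 higher and 4 lower, where 38.6% of all genes were called and 19.8% were lower. For 30min 3 members were called, 2 higher and 1 lower, against 37.8% of all genes, 19.6% lower. For 4h 3 were called, 1 higher and 2 lower, against 39.5% of all genes, 19.6% higher and 19.9% lower. The shares for 30min and 4h are near those of all genes. The interactions called 2 members at 4h (1.56% of all genes) and 0 at 30min (0% of all genes; 3 members at an unadjusted p under 0.05 and 1 with DESeq2). With the replicate block, 9, 8 and 6 members were called between the siRNAs for CLM, 30min and 4h, where 58.4, 58.5 and 58.8% of all genes were, so that for 30min the members' share was then above that of all genes. At 30min against CLM the block called 4 members in SIK3 libraries (3.37% of all genes) and 3 in Scr1 libraries (2.78%), and for 4h 7 in SIK3 libraries (21.8%) and 7 in Scr1 libraries (23.5%). The blocked interactions called 2 members at 30min (0.264% of all genes) and 5 at 4h (12%).

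**Figure D3:**
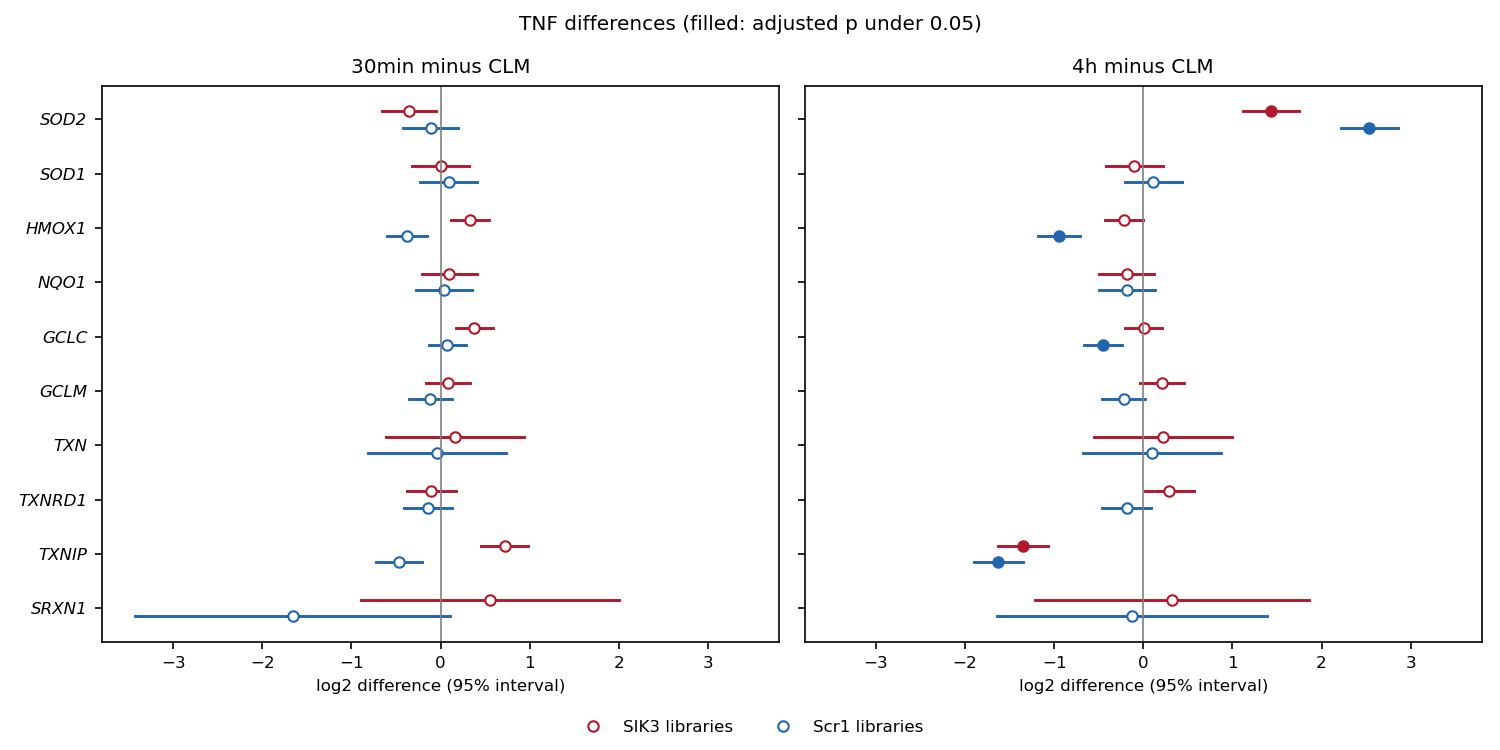
Log2 difference (x axis) of the 30min (left) and 4h (right) libraries minus CLM for the 10 genes (rows), in SIK3 (red) and Scr1 (blue) libraries, with 95% intervals from the edgeR fit; filled points have an adjusted p under 0.05. At 4h SOD2 lies at 1.43 in SIK3 and 2.54 in Scr1 libraries, TXNIP at -1.35 and -1.62, HMOX1 in Scr1 libraries at -0.94, and the other members within 0.5 of 0; no point is filled at 30min.

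SOD2 was set against the NRF2-type members NQO1, GCLC, GCLM and TXNRD1 within each replicate, as a description. At 4h against CLM, SOD2 was at 1.28 and 1.60 in SIK3 libraries (log2, replicate 1 and 2) where the median of the 4 genes was at 0.0961 and 0.117, and at 2.57 and 2.49 in Scr1 libraries where the median was at -0.224 and -0.244. The gap between SOD2 and those genes at 4h was thus 1.18 and 1.48 in SIK3 libraries and 2.80 and 2.73 in Scr1 libraries. For SIK3 CLM against Scr1 CLM, SOD2 was at 0.915 and 0.900 and the median of the 4 at -0.406 and -0.387, on opposite sides of 0 in both replicates. HMOX1 and TXN are NRF2-type members outside these 4, and in that comparison they lay on the side of SOD2, at 2.23 and 0.25. Across the 12 libraries, the correlation of log2 CPM (Pearson r, libraries not independent of their groups, and given as a description) was 0.875 between NQO1 and SOD1 and 0.874 between GCLM and TXNRD1, -0.893 between SOD2 and TXNIP, and 0.0179 between HMOX1 and SOD2. Among the NRF2-type members, HMOX1 had -0.687 to GCLM, -0.654 to NQO1 and -0.647 to TXNRD1, but 0.0583 to GCLC and 0.512 to TXN.

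The 12 NF-κB targets set beside SOD2 all rose at 4h against CLM, where 3.65% of all genes were higher in SIK3 and 5.53% in Scr1 libraries. They had a median log2 difference of 1.58 in SIK3 libraries and 2.34 in Scr1 libraries, where the median of all genes was -0.00234 and -0.0328. NFKBIA, which encodes the inhibitor IκBα, rose 3.59-fold in SIK3 and 4.36-fold in Scr1 libraries, TNFAIP3, which encodes the feedback enzyme A20, 5.47-fold and 7.23-fold, and IRF1, an interferon-response factor, 4.51-fold and 6.75-fold. TRAF1, a TNF receptor adaptor, rose 2.89-fold in SIK3 and 5.92-fold in Scr1 libraries. It had the only interaction at 4h called by edgeR without the block among the 12 (log2 -1.04 ± 0.128, edgeR adjusted p = 0.00598), where 1.56% of all genes were called. DESeq2 called 5 of the 12, and over all genes 158 higher and 232 lower. By contrast 11 of 12 were lower in the interaction with the replicate block, where 12% of all genes were called. At 30min 3 of 12 were called higher and 1 lower in SIK3 libraries and 5 and 1 in Scr1 libraries, where 0.15 and 0.294% of all genes were called. TNFAIP3 was at 2.62-fold and 4.06-fold and NFKBIA at 1.93-fold and 2.95-fold, while SOD2 was not called. In SIK3 libraries the 30min call of NFKBIA was lost in all 4 refits without 1 library (adjusted p up to 0.271) and that of TNFAIP3 in 3 of 4 (up to 0.23). Between the siRNAs 6 of 12 were lower and 2 higher for CLM, 6 lower for 30min and 10 lower for 4h, with TNFAIP3 at a log2 of -0.86, -1.49 and -1.26. Of all genes 19.8, 19.6 and 19.9% were lower in these comparisons. SOD2 was higher in SIK3 CLM, as 2 of the 12 were, and in SIK3 30min, where 0 of the 12 were.

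**Figure D4:**
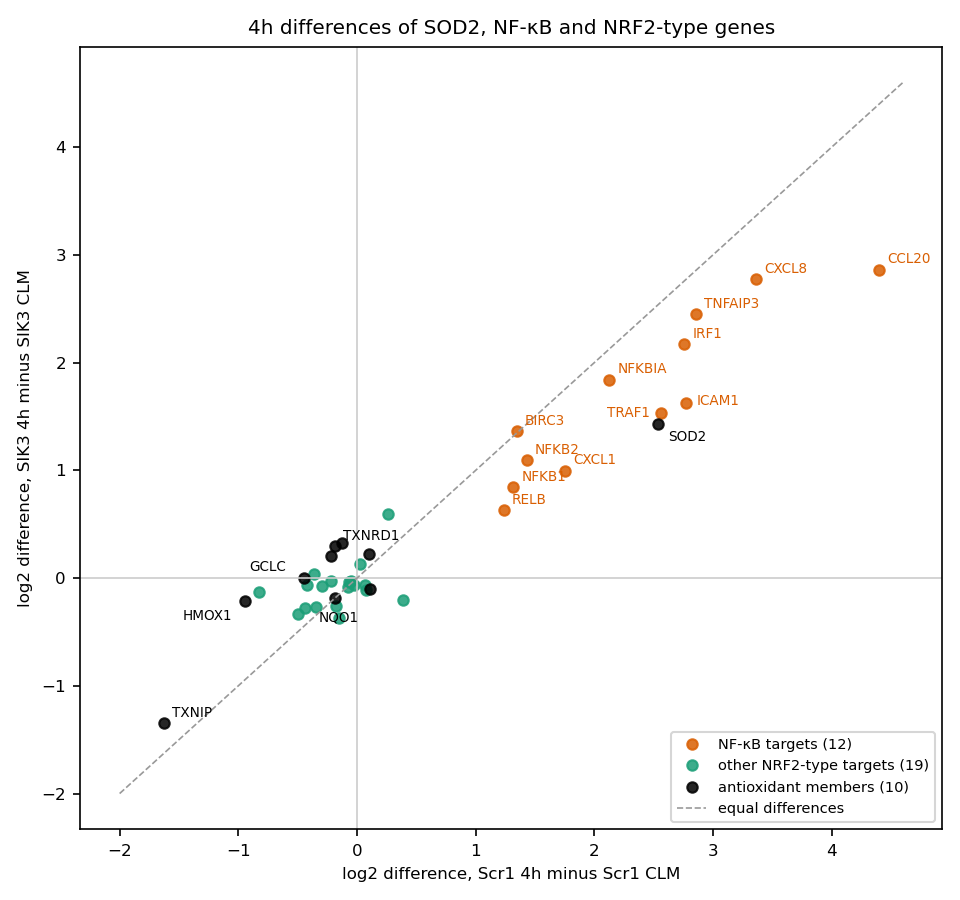
Log2 difference of 4h minus CLM in SIK3 libraries (y axis) against the same in Scr1 libraries (x axis), for the 12 NF-κB targets (orange), the 19 tested NRF2-type targets outside the members (green) and the 10 members (black); the dashed line marks equal differences. SOD2 (2.54, 1.43) lies among the NF-κB targets near TRAF1, and the NRF2-type targets outside the members lie within 1 of 0 on both axes.

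Of 24 other NRF2-type targets, 19 were tested. At 4h against CLM 0 were called in SIK3 libraries (edgeR; 3 at an unadjusted p under 0.05, 0 with DESeq2; median log2 -0.0704), and in Scr1 libraries 0 higher and 1 lower (median -0.151). Fitted with the replicate block, 1 was higher and 3 lower in SIK3 libraries and 1 higher and 9 lower in Scr1 libraries, where 21.8 and 23.5% of all genes were called in either direction. The 1 called without the block was UGDH, the UDP-glucose dehydrogenase, with 347 and 340 CPM in SIK3 4h and 427 and 409 CPM in SIK3 CLM, and 309 and 276 CPM in Scr1 4h and 410 and 382 CPM in Scr1 CLM (Scr1 log2 -0.44 ± 0.0859, edgeR adjusted p = 0.0113, lost in 2 of 4 refits without 1 library at up to 0.099). In SIK3 libraries its value was -0.28 (adjusted p = 0.115, or 0.00035 with the block). Between the siRNAs 2 of the 19 were higher and 7 lower for CLM, 3 and 7 for 30min and 2 and 6 for 4h. The shares of all genes called there were 38.6, 37.8 and 39.5%. With the replicate block 6 of the 19 were higher and 9 lower for CLM, 6 and 8 for 30min and 7 and 8 for 4h. The block called 58.4, 58.5 and 58.8% of all genes in these comparisons. FTL, the ferritin light chain that stores iron, was higher in SIK3 libraries at all 3 times (log2 0.78, 0.77 and 0.77, each ± 0.12; adjusted p = 0.000697, 0.000757 and 0.000784), as HMOX1 was. OSGIN1, a stress-inducible growth inhibitor, was lower (-1.74, -1.28 and -1.05), as were TKT, the pentose phosphate enzyme transketolase (-0.55, -0.56 and -0.53), and ABCC3, an efflux transporter (-0.94, -1.12 and -0.72). All had an adjusted p under 0.05, and the 4h calls of OSGIN1 and ABCC3 were lost in 1 refit each (adjusted p = 0.0506 and 0.0571).

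Of 8 genes that control NRF2 targets, 1 was higher and 4 lower in SIK3 than in Scr1 libraries for CLM, 1 and 5 for 30min and 1 and 3 for 4h. Of all genes 38.6, 37.8 and 39.5% were called in these comparisons, with 19.8, 19.6 and 19.9% lower. NFE2L2, which encodes NRF2, had 116 and 123 CPM in SIK3 CLM, 117 and 137 CPM in SIK3 30min and 151 and 143 CPM in SIK3 4h, against 226 and 246 CPM in Scr1 CLM, 207 and 213 CPM in Scr1 30min and 222 and 247 CPM in Scr1 4h. It was lower by log2 values of -0.98, -0.72 and -0.67 (edgeR adjusted p = 6.17e-05, 0.000407 and 0.000664). BACH1, the repressor of HMOX1, had 53.9 and 46.7 CPM in SIK3 CLM, 53.5 and 48.1 CPM in SIK3 30min and 52.9 and 49.9 CPM in SIK3 4h, against 89.1 and 80.2 CPM in Scr1 CLM, 80.6 and 76.0 CPM in Scr1 30min and 96.2 and 87.7 CPM in Scr1 4h. It was lower by -0.75, -0.62 and -0.84 (adjusted p = 0.000521, 0.00157 and 0.00029). Among the small MAF genes, MAFF was lower (-1.32, -0.98 and -1.35) and MAFK higher (0.84, 0.62 and 1.04), with no overlap between the siRNAs at any time, and MAFG was lower for CLM and 30min (-0.38 and -0.49).

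With TNF, MAFF rose in both siRNAs at 4h, by 1.59 ± 0.11 in SIK3 libraries (68.2 and 60.6 CPM against 21.7 and 20.9 CPM in SIK3 CLM) and by 1.62 ± 0.108 in Scr1 libraries (172 and 156 CPM against 54.1 and 52.5 CPM in Scr1 CLM). SQSTM1, the autophagy adaptor p62 that binds KEAP1, was at 0.32 ± 0.0835 in SIK3 libraries (edgeR adjusted p = 0.0648, or 4.65e-05 with the replicate block) and rose by 0.33 ± 0.0835 in Scr1 libraries (0.0388), a call lost in all 4 refits without 1 library (adjusted p up to 0.236). Thus 1 of 8 NRF2 regulators was called at 4h in SIK3 libraries and 2 of 8 in Scr1 libraries, where 4.42 and 8.99% of all genes were. With the block, where 21.8 and 23.5% of all genes were called, 3 were higher in SIK3 libraries and 2 higher and 3 lower in Scr1 libraries. NFE2L2 was among them in SIK3 libraries (0.30, adjusted p = 0.155, or 0.0011 with the block).

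Of 26 other peroxide, glutathione and thioredoxin enzymes 25 were tested, and 1 was called at 4h against CLM, in Scr1 libraries. Of all genes 4.42% were called in SIK3 and 8.99% in Scr1 libraries. Under the replicate block 4 of the 25 were higher and 4 lower in SIK3 libraries and 2 higher and 1 lower in Scr1 libraries. That fit called 21.8 and 23.5% of all genes in either direction. GLRX, the glutaredoxin that reduces glutathione-protein disulphides, had 4.76 and 5.30 CPM in SIK3 CLM, 6.76 and 4.21 CPM in SIK3 30min and 9.68 and 6.83 CPM in SIK3 4h, against 6.71 and 3.81 CPM in Scr1 CLM, 8.55 and 7.65 CPM in Scr1 30min and 43.9 and 32.0 CPM in Scr1 4h. Only the Scr1 4h libraries stood apart. GLRX rose 7.13-fold in Scr1 libraries (log2 2.83 ± 0.314, edgeR adjusted p = 0.000343) and was at 0.71 in SIK3 libraries (adjusted p = 0.293, or 0.00366 with the replicate block). The interaction was -2.12 ± 0.438 (adjusted p = 0.05005, or 2.65e-06 with the replicate block). Between the siRNAs 7 of the 25 were higher and 4 lower for CLM, 7 and 3 for 30min and 5 and 5 for 4h. The shares of all genes called there were 38.6, 37.8 and 39.5%. With the replicate block 11 of the 25 were higher and 7 lower for CLM, 11 and 9 for 30min and 11 and 9 for 4h. The block called 58.4, 58.5 and 58.8% of all genes in these comparisons. CAT, the peroxisomal catalase, was higher in SIK3 libraries (0.90, 1.04 and 0.81; adjusted p = 0.0043, 0.00198 and 0.00768, the last lost without either of 2 libraries at up to 0.0572), with 183 and 148 CPM in SIK3 CLM and 99.2 and 78.4 CPM in Scr1 CLM. GPX7 was higher (0.94, 1.31 and 0.72, the CLM call lost in 2 of 4 refits without 1 library at up to 0.0782 and the 4h call in all 4 at up to 0.146) and GPX8 lower for CLM and 4h (-0.56 and -0.64), with -0.28 for 30min called with the block only (adjusted p = 0.00366); both encode glutathione peroxidase family proteins of the endoplasmic reticulum.

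**Figure D5:**
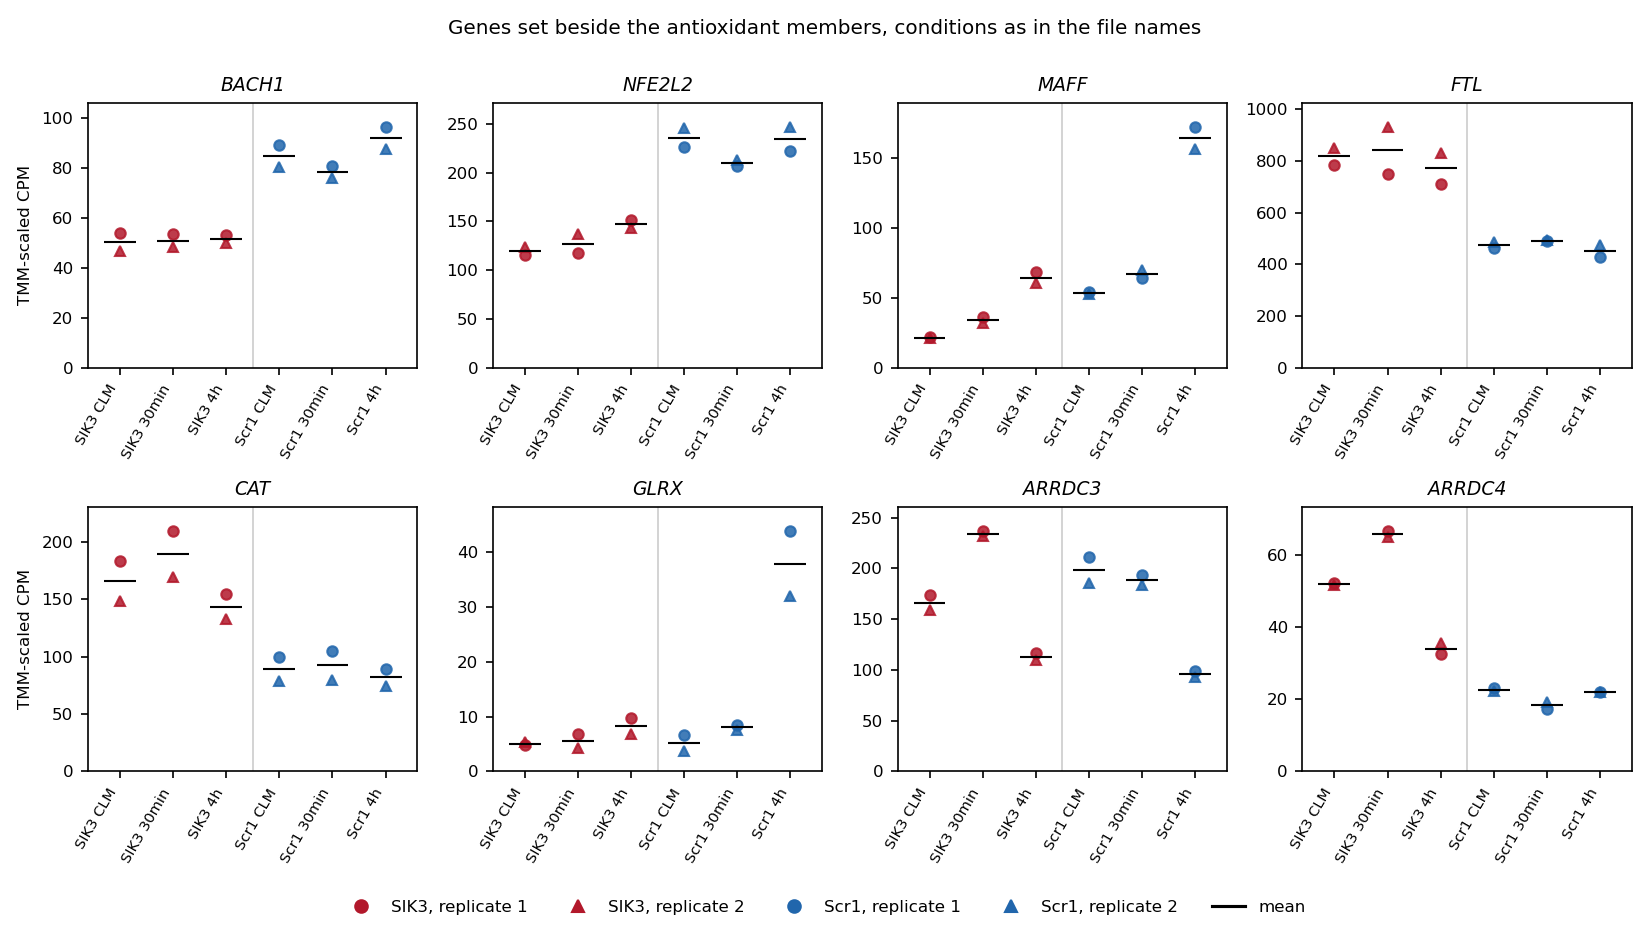
TMM-scaled CPM (linear axis from 0) of 8 genes set beside the members, in the 12 libraries grouped by the file-name words; points are libraries and horizontal lines are means of 2. BACH1 and NFE2L2 are lower and FTL and CAT higher in SIK3 than in Scr1 libraries at each time, GLRX stands apart in Scr1 4h at 43.9 and 32.0 CPM, and ARRDC4 is higher in SIK3 libraries.

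Of 10 oxidant-producing enzymes 4 were tested. None of the 4 was called by edgeR at either TNF time (at 4h 0 in SIK3 and 1 in Scr1 libraries at an unadjusted p under 0.05, and 0 with DESeq2 in both). The replicate block called CYBA higher at 4h in Scr1 libraries (0.33, adjusted p = 0.181 without and 0.000884 with the block). CYBA, the p22phox subunit, had 69.8 and 62.5 CPM in SIK3 CLM and 48.9 and 42.3 CPM in Scr1 CLM (log2 0.54 ± 0.128, edgeR adjusted p = 0.0085, lost in 2 of 4 refits without 1 library at up to 0.0709).

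Beside TXNIP, 7 alpha-arrestin and MondoA-complex genes were tested. ARRDC3, the relative of TXNIP that adapts ubiquitin ligases to membrane receptors, had 117 and 110 CPM in SIK3 4h against 174 and 159 CPM in SIK3 CLM, and 99.4 and 92.5 CPM in Scr1 4h against 211 and 185 CPM in Scr1 CLM. It fell by 0.56 ± 0.094 on the log2 scale in SIK3 libraries (edgeR adjusted p = 0.0106, lost in 3 of 4 refits without 1 library, up to 0.106) and by 1.04 ± 0.0948 in Scr1 libraries (9.42e-05). ARRDC4, another sugar-responsive arrestin, had 32.4 and 35.5 CPM in SIK3 4h against 52.1 and 51.5 CPM in SIK3 CLM (-0.61 ± 0.094, adjusted p = 0.00663, lost in 3 of 4 refits, up to 0.0666) and 21.9 and 22 CPM in Scr1 4h against 23.0 and 22.2 CPM in Scr1 CLM. Between the siRNAs ARRDC4 was higher in SIK3 libraries (1.20, 1.84 and 0.63; adjusted p = 1.27e-05, 1.35e-06 and 0.000711), the opposite direction to TXNIP for CLM and 4h.

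The genes with the pattern most like each of 4 members were found by Pearson r of log2 CPM over the 12 libraries among 9121 genes with a mean of at least 10 CPM. For SOD2 they were GBP1 (0.988), NFKBIB (0.983), APOL2 (0.982), EPOP (0.979) and FSTL3 (0.977). For HMOX1 they were TMEM241, EDIL3, C1GALT1, ADARB1 and ZFYVE9 (0.991 to 0.992), and for NQO1 TSNAX, MED23, TMEM135, HSDL1 and NDUFS1 (0.978 to 0.983). For TXNIP they were RHOU (0.960), RAB40C (0.960), LIN54 (0.933), LCA5 (0.932) and LONRF3 (0.929), a looser set of neighbours. The libraries share 6 conditions and 2 replicate numbers, so these values describe likeness only.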

How the data were processed

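Total RNA of PANC-1 cells was extracted with RNeasy including DNase I and made into ScriptSeq libraries, per the labels' protocols. The deposited values are raw counts, whole numbers of reads per Ensembl gene (60669 identifiers, with 4 summary entries left out of library sizes), from 1 column per library; STAR 2.05b, edgeR and GRCh38 are named per the submitters' processing notes, while strand setting and annotation release are not given in the sources used here. Symbols and positions came from GENCODE 29.

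In R 4.3.3 with edgeR 4.0.16, filterByExpr (minimum count 10) kept 16695 genes, sizes were scaled by TMM, and 1 quasi-likelihood fit of 12 libraries (6 residual degrees of freedom, no block) gave 7 pairwise comparisons and 2 interactions, Benjamini-Hochberg adjusted over all genes at 0.05. SE is the log2 difference over the square root of F. The fit was tested on simulated counts without a replicate effect, so that test does not cover the replicate deviations described below. Replicates differed beyond sampling noise (chi-square 15.7 to 32.3 per degree of freedom). Same-numbered replicates deviated together in 15 of 15 pairs of groups (r from 0.35 to 0.53 across genes), so the numbers were taken to pair the libraries, and blocked values (replicate number as a term) stand in the text where they change a member's call or that of another value printed. Alternatives were that block, conditions from the titles, DESeq2 1.42.0 (size factors and Wald test), library totals, 2 other filters, the compared libraries alone and each library left out. The 10 genes and all lists were chosen with earlier results of these data known. Named genes were the members, SIK3, up to 4 per list with the smallest p over the TNF and over the siRNA comparisons, and for 4 members the 5 genes most alike. Tables and figures were made with Python 3.11.15.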

Additional observations from a re-analysis of the deposited data

Results flagged for a closer look

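SOD2 differed less between 4h and CLM in SIK3 libraries than in Scr1 libraries, and a direct test of that difference passed. The interaction was -1.11 on the log2 scale (edgeR adjusted p = 0.0272), from 1693 ± 48.2 CPM in SIK3 4h and 627 ± 81.1 CPM in SIK3 CLM, and 1940 ± 315 CPM in Scr1 4h and 334 ± 40.7 CPM in Scr1 CLM (SD, n = 2 each). HMOX1 fell less on the log2 scale between CLM and 4h in SIK3 libraries (-0.22) than in Scr1 libraries (-0.94). Its interaction was therefore positive, at 0.73 (edgeR adjusted p = 0.0376). HMOX1 levels were 91.1 ± 1.46 CPM in SIK3 4h and 106 ± 1.66 CPM in SIK3 CLM, and 11.6 ± 1.28 CPM in Scr1 4h and 22.5 ± 1.4 CPM in Scr1 CLM. In the compared libraries alone both calls were lost (SOD2 -1.15, adjusted p = 0.0686; HMOX1 0.69, 0.121), HMOX1's was lost with no filter (0.0555), and leaving out 1 library ended SOD2's in 5 of 8 refits and HMOX1's in 8 of 8. Of 10 members these 2 were called, where 1.56% of all genes were. With the replicate block the interactions were -1.09 for SOD2 and 0.73 for HMOX1 (edgeR adjusted p = 4.1e-08 and 9.08e-05). That fit called 12% of all genes for this interaction. SIK3 4h is also the group with 16.5 and 17.1% of reads assigned to no annotated gene feature, and the part of that in either result was not tested.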

How the results depend on the processing

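Over the 10 genes and 9 comparisons, 20 values were called. Leaving out 1 library in turn ended 8 of these 20 calls in at least 1 refit and left 12. In the compared libraries alone 8 calls ended, with adjusted p of 0.0522 (GCLM), 0.108 (GCLC) and 0.0608 (TXNRD1) for SIK3 against Scr1 at CLM, 0.0527 (TXNRD1) at 30min, 0.0633 (NQO1) at 4h, 0.144 for GCLC at 4h in Scr1 libraries, and 0.0686 (SOD2) and 0.121 (HMOX1) for the interactions at 4h. Library totals ended 3 calls, no filter 2 and DESeq2 size factors 1; the DESeq2 Wald test ended 0 and the stricter filter 0. The counts of genes called over all 16695 were 6448, 6313 and 6594 for SIK3 against Scr1 at CLM, 30min and 4h, 49 and 1501 at 30min and 4h against CLM in Scr1 libraries, 25 and 738 in SIK3 libraries, and 0 and 261 for the interactions. Without 1 library they ranged over 4835 to 5262, 4668 to 4943, 4766 to 5237, 22 to 27, 857 to 922, 6 to 11, 212 to 273, 0 to 0 and 61 to 116. With the replicate block, which pairs same-numbered libraries, they were 9746 (CLM) and 9771 (30min) for the siRNA, 464 and 3928 in Scr1, 563 and 3642 in SIK3 libraries, and 44 and 1996 for the interactions; 31 member values gained a call and no member call was lost. With no filter they were 101 (Scr1 30min), 90 and 1109 (SIK3) and 18 and 505 (interactions). In the compared libraries alone they were 14 and 614 (Scr1), 0 and 263 (SIK3) and 96 (interaction at 4h), and with the DESeq2 Wald test 85 and 57 at 30min in Scr1 and SIK3 libraries and 6 for the interaction at 30min. Library totals shifted the median of all genes to 0.131 for SIK3 against Scr1 at 4h.

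Taking conditions from the titles compares other libraries, so it is no recheck of the same pair. Counts were then 49 and 1180 for the siRNA (unstimulated and 4 h), 1501 and 6330 at 30 min and 4 h in control siRNA, 6687 and 6980 in SIK3 siRNA, and 4760 and 576 for the interactions; with the titles and the block they were 464 and 10186 (siRNA, unstimulated and 30 min), 3928 and 9647, 9981 and 10304, and 8414 and 3375. Log2 values called in either fit and of the opposite sign by title are listed here, with the block after the slash where it differs; uncalled values that changed sign are left out. For the siRNA unstimulated they were GCLC 0.08, SOD2 -0.11, SIK3 0.23 / 0.24 and HMOX1 -0.38, at 30 min SOD2 -1.63, and at 4 h GCLC -0.38, SOD2 1.78 / 1.79 and HMOX1 -0.54. At 30 min in control siRNA they were GCLC -0.45, SOD2 2.54 / 2.53 and, with the block, NQO1 -0.18, and at 4 h GCLC 0.07, SIK3 -1.19 / -1.17, HMOX1 2.56 and, with the block, SOD1 -0.17. At 30 min in SIK3 siRNA they were GCLM -0.37 / -0.36, TXNIP -0.71 / -0.72, GCLC -0.39, SOD2 1.02, SIK3 -1.53 / -1.50, NQO1 -0.43 and, with the block, SOD1 -0.27, and at 4 h GCLC -0.39, SIK3 -1.44 / -1.43 and HMOX1 2.40. For the interaction at 30 min they were, with the block, TXNRD1 -0.14 and NQO1 -0.25, and at 4 h TXNIP -1.61 / -1.60, SOD2 1.90, HMOX1 -0.17 and, with the block, GCLC -0.46. The title readings used the same fits, without and with the block, and only the groups compared were changed. SRXN1 is limited by its 2 to 16 counts per library, with most of its exon bases shared with AL121758.1. For the rest, 2 replicates a group are the limit.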
